A study of Mus musculus with 4 samples.

Results

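Astrocytes can make, take up and break down GABA, the main inhibitory transmitter of the brain, and 9 genes for these steps were followed in cultured mouse astrocytes with and without Cd38. They were Gad1 and Gad2 (synthesis), Abat, Aldh5a1 and Maob (breakdown and an alternative source), Slc6a11 and Slc6a13 (uptake), Slc32a1 (loading into vesicles) and Best1 (a channel through which GABA can leave the cell). All 9 were found by symbol, each on 1 of the 55467 gene identifiers in the files. The set was chosen by function and with its values in these libraries already known, so the values below describe the genes and no p-value is given for any of the 9.

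Glutamate decarboxylase turns glutamate into GABA, and the 2 forms of the enzyme come from Gad1 and Gad2. Astrocytes can also make GABA from putrescine, a route in which monoamine oxidase B takes part. GABA taken up from outside passes through the transaminase Abat to succinic semialdehyde and through the dehydrogenase Aldh5a1 to succinate, which enters the citric acid cycle.

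The cells were primary astrocytes from the cerebral cortex of mice aged 1 to 3 days, either wild type (WT) or lacking CD38 (CD38 KO), as a pair of libraries for either genotype. The CD38 protein is a surface enzyme that degrades NAD+ and makes calcium-releasing messengers, and the study asks about its role in astrocytes for synapse formation and social memory. Both genotypes were grown with 10% fetal serum for 14 days, shaken for 12 h to remove loose cells, replated and collected after 5 days. The labels give neither the strain, the deleted part of Cd38 nor whether replicates are separate animals or cultures. Loss of Cd38 and a strain difference cannot be told apart here, and p-values measure only the spread between these libraries, which may be technical.

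The deposited values are FPKM, fragment counts scaled to transcript length and library depth, so levels can be compared between genes. Depth, recovered from the steps between low values, was 26791061 to 29068011 fragments per library. Cd38 had 3.13 and 3.45 FPKM in the WT pair and 0.0222 and 0.0222 FPKM in the CD38 KO pair, as the labels say. The fit took in the 13064 genes whose mean reached 1 FPKM, and 1875 genes (14.4%) passed limma's adjusted p of 0.05, 8.00% as higher and 6.35% as lower in CD38 KO. Such genes are named "called" below. Both libraries of one genotype lay above both of the other in 59.9% of the tested genes, whichever the direction. The share of all tested genes at an unadjusted p under 0.05 was not taken, so counts at that threshold stand without a background.

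Markers of several cell types were summed in each library, because bulk RNA mixes all cells of a culture. Fewer cells of a type and less RNA per cell cannot be told apart in such data. The 12 astrocyte markers summed to 3412 and 3308 FPKM in WT and to 2923 and 2957 FPKM in CD38 KO, led by the filament gene Gfap, the glutamate transporter Slc1a3 and the aldolase Aldoc. Of the 11 tested ones, 2 were called higher and 7 lower, so the list did not move as one. The 2 called higher were Aldh1l1 and Gja1. Aldh1l1 had 128 and 123 FPKM in WT and 153 and 153 FPKM in CD38 KO. Gja1 had 56.7 and 55.6 FPKM in WT and 66.7 and 66.4 FPKM in CD38 KO. Neither of these calls held in every fit without 1 library. The 14 markers of microglia and macrophages, the phagocytes of the brain, summed to 109 and 94.7 FPKM in WT and to 739 and 659 FPKM in CD38 KO. All 13 tested ones were called higher, and the remaining one, the microglial receptor P2ry12, stayed at or below 0.633 FPKM and overlapped between genotypes. Among the 13, Tmem119 was low, at 0.323 and 0.665 FPKM in WT and 2.01 and 1.41 FPKM in CD38 KO. Its call did not hold in any fit without 1 library. Lyz2, Fcer1g and Tyrobp were the most abundant of the list. The astrocyte sum was thus lower and the phagocyte sum higher in both CD38 KO libraries.

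Neurons are the main GABA-making cells of the brain, and several of their markers were near 0. Of 8 general neuronal markers, Rbfox3, Snap25, Syt1 and Nefl stayed at or below 0.12 FPKM in every library. The list summed to 50.6 and 47.8 FPKM in WT and to 69.5 and 74.3 FPKM in CD38 KO. Stmn2, its most abundant gene, rose from 30.7 and 28.8 to 54.8 and 56.1 FPKM (limma adjusted p = 0.000411), ahead of Tubb3 and Nefm. The other 3 tested markers were lower in both CD38 KO libraries and were not called. Tubb3 went from 14.1 and 13.7 to 10.1 and 13.5 FPKM, and Nefm from 2.65 and 2.59 to 2.38 and 2.28 FPKM. Syn1 went from 2.83 and 2.49 to 1.89 and 2.07 FPKM. The higher sum in CD38 KO thus rested on Stmn2. The 12 markers of GABAergic neurons summed to 34.2 and 35.2 FPKM in WT and to 36.6 and 34.3 FPKM in CD38 KO, so the genotypes overlapped. Of these 12, Vip was listed at 0 in all 4 libraries, and Dlx5, Dlx6, Lhx6, Sst and Nkx2-1 stayed below 0.1 FPKM. Of the 4 tested ones, 2 were called higher and 1 lower. The calcium-binding proteins Pvalb and Calb2 rose, Pvalb from 5.42 and 4.47 to 9.47 and 9.61 FPKM and Calb2 from 0.118 and 0.112 to 3.07 and 1.91 FPKM. The call of Pvalb ended without either CD38 KO library. Npy was not called. The summed levels of these lists by library, plotted on a log axis, show the phagocyte list as the widest gap between genotypes.

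**Figure D1:**
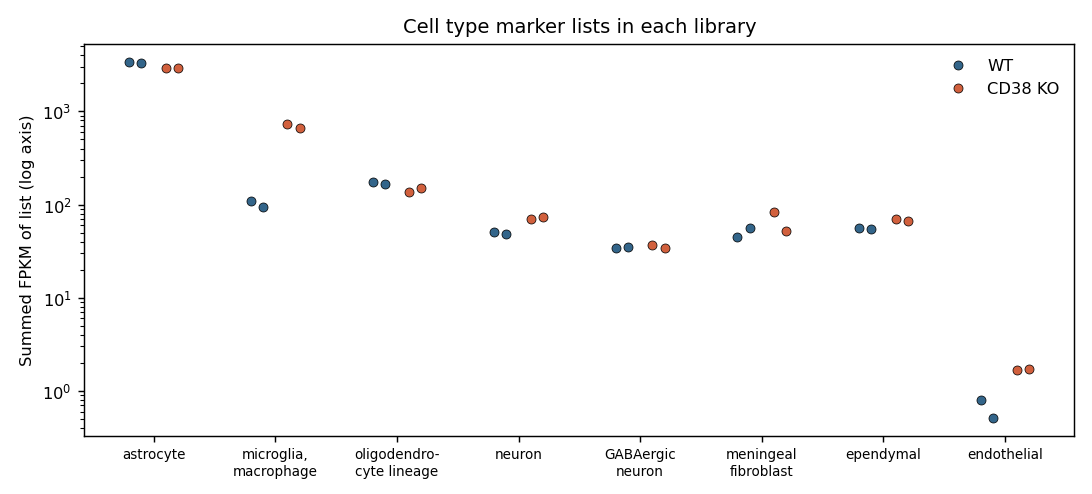
Summed FPKM of 8 cell type marker lists (log axis) in the 2 WT and 2 CD38 KO libraries, 1 point per library. The phagocyte list lies at 94.7 and 109 FPKM for WT and 659 and 739 FPKM for CD38 KO, while the sums of the GABAergic neuron and meningeal fibroblast lists overlap between genotypes.

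Gad1, which encodes the glutamate decarboxylase GAD67, was by far the more abundant of the 2 synthesis genes and was lower in CD38 KO. Gad1 (ENSMUSG00000070880, GRCm38 chromosome 2, 70553072 to 70602014) had 71.4 and 81.5 FPKM in the WT libraries and 46.1 and 41.7 FPKM in the CD38 KO libraries. Both CD38 KO libraries lay below both WT libraries. The means were 76.4 ± 7.13 and 43.9 ± 3.06 FPKM (SD, n = 2 each), a level 1.74-fold lower in CD38 KO. On the scale of log2(FPKM + 1) the difference was -0.78 (SE 0.08), and 1.42% of the 13064 tested genes had a more negative one. In level, Gad1 exceeded 90.2% and 91.7% of the tested genes in the WT libraries and 84.0% and 82.2% in the CD38 KO libraries.

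Of the 9 genes, 5 reached the mean of 1 FPKM needed for the fit, and Gad1 alone of these 5 was called, as lower. Over all tested genes, 14.4% were called in either direction and 6.35% as lower. The call of Gad1 ended without CD38 KO 2 (log2 difference -0.71). It also ended when no filter on low values was applied, with the difference still at -0.78. The sums of astrocyte and phagocyte markers moved between the genotypes as given above, and their part in the difference of Gad1 was not tested. Gad1 has 8 annotated transcripts, and the deposited gene value sums what was assigned to them. The antisense gene Gad1os overlaps it on the opposite strand and had 3.20 and 5.62 FPKM in the WT pair and 4.39 and 4.28 FPKM in the CD38 KO pair. Its genotypes overlapped, and whether counting used the strand is not given in the sources used here.

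Gad2, which encodes GAD65, the form tied to synaptic vesicles in neurons, was at or near 0. Gad2 (ENSMUSG00000026787, chromosome 2, 22622205 to 22693874) was listed at 0 in both WT libraries and in CD38 KO 2, and at 0.00617 FPKM in CD38 KO 1. With the length of its longest coding transcript, that value stands for 1 fragment. A level of up to 0.0191 and 0.0201 FPKM in the WT libraries would be 3 fragments, the limit that a count of 0 allows. This limit and those below cover counting error only.

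Stretches upstream of a RefSeq start site are shown for these 2 genes, since one was abundant and the other near 0 in the same cells. The stretches were cut before the first annotated exon base and so do not reach that start site. They come from RefSeq start-site windows (build GRCm38.p6, plus strand), which reach from 250 bases before to 50 bases after a start and were found for 7 of the 9 genes, without Abat and Maob. The Gad2 stretch ends at the base before the annotated gene, while the Gad1 stretch lies inside the annotated gene, downstream of its outermost start. Capitals mark CpG dinucleotides.

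Gad1, chr2:70561879-70562041: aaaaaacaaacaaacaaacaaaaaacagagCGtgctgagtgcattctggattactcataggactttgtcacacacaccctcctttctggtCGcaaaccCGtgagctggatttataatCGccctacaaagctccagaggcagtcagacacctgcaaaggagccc
Gad2, chr2:22622077-22622204: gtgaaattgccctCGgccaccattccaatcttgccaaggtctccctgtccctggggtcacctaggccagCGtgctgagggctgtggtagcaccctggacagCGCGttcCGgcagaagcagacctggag

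The printed stretches hold 4 CpG in 163 bases for Gad1 and 5 CpG in 128 bases for Gad2. Over the whole windows of 300 bases, Gad1 had 21 CpG and a GC content of 60.0%, and Gad2 had 14 CpG and 61.3%. The median over all 32851 windows was 7 CpG. Gad1 was the only one of the 7 genes whose window held the letters TATAAA, searched on both strands, which 13.6% of all windows hold. In the printed Gad1 stretch the match is TTTATA, which reads TATAAA only on the strand opposite to the gene. These counts describe the letters of the windows and show nothing of what binds there.

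Abat, the mitochondrial transaminase that begins GABA breakdown, overlapped with Gad1 in WT and differed little between genotypes. Abat (ENSMUSG00000057880, chromosome 16, 8513429 to 8621568) had 72.7 and 71.0 FPKM in the WT pair and 74.9 and 78.4 FPKM in the CD38 KO pair. Both CD38 KO libraries were above both WT libraries, by 6.70% between the means of 71.8 ± 1.16 and 76.7 ± 2.50 FPKM (SD, n = 2 each). The log2 difference of 0.09 (SE 0.05) was not called.

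Relative to Abat, Gad1 was therefore lower in both CD38 KO libraries than in either WT library. In WT the level of Gad1 divided by that of Abat was 0.982 and 1.15, and in CD38 KO it was 0.615 and 0.532. The 2 genes overlapped in WT, while Abat was above Gad1 in both CD38 KO libraries.

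Aldh5a1, succinic semialdehyde dehydrogenase, had 10.3 and 9.74 FPKM in the WT pair and 11.3 and 12.1 FPKM in the CD38 KO pair. This gene (ENSMUSG00000035936, chromosome 13, 24907579 to 24937661) was higher in both CD38 KO libraries than in either WT library, with means of 10.0 ± 0.399 and 11.7 ± 0.541 FPKM (SD, n = 2 each). Its log2 difference of 0.20 (SE 0.07) was not called.

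Maob, which encodes monoamine oxidase B, had 22.8 and 22.3 FPKM in the WT pair and 22.4 and 21.2 FPKM in the CD38 KO pair. The genotypes overlapped for this gene (ENSMUSG00000040147, chromosome X, 16709282 to 16817366). Its log2 difference was -0.05 (SE 0.06), and the means were 22.5 ± 0.335 and 21.8 ± 0.854 FPKM (SD, n = 2 each). In level it lay above 65.5% to 67.7% of the tested genes in every library.

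Slc6a11, which encodes the GABA transporter GAT-3 of astrocytes, was far below Gad1, Abat, Aldh5a1 and Maob. Slc6a11 (ENSMUSG00000030307, chromosome 6, 114131241 to 114249952) had 2.26 and 2.69 FPKM in the WT pair and 1.81 and 2.11 FPKM in the CD38 KO pair. Both CD38 KO libraries were below both WT libraries, but CD38 KO 2 and WT 1 lay close together. The means were 2.47 ± 0.298 and 1.96 ± 0.212 FPKM (SD, n = 2 each), and the log2 difference of -0.23 (SE 0.12) was not called.

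Slc6a13, which encodes GAT-2, a transporter known from the meninges, was listed at 0 in both WT libraries and at 0.0834 and 0.0499 FPKM in CD38 KO. With the longest coding transcript of Slc6a13 (ENSMUSG00000030108, chromosome 6, 121300227 to 121337733), the CD38 KO values stand for about 5 and 3 fragments. A WT level of 3 fragments would be 0.0541 and 0.0515 FPKM, so the genotypes differ by a handful of fragments and no fold is given. The 11 markers of meningeal fibroblasts summed to 44.5 and 55.5 FPKM in WT and to 82.4 and 51.7 FPKM in CD38 KO, with Col1a1, Pdgfrb and Col1a2 the most abundant and Slc22a6 listed at 0 throughout. None of its 7 tested members was called by limma (1 had an unadjusted p under 0.05), and the part of such cells in the Slc6a13 values was not tested.

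Slc32a1, the vesicular transporter that loads GABA in inhibitory neurons, was also listed at 0 in both WT libraries. Slc32a1 (ENSMUSG00000037771, chromosome 2, 158610767 to 158615748) has 1 annotated transcript and was at 0.0345 and 0.0523 FPKM in CD38 KO, or 2.63 and 3.99 fragments. Against this, 3 fragments would be 0.0425 and 0.0404 FPKM in the WT libraries. A difference was not detectable at this depth.

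Best1, which encodes the anion channel bestrophin 1, was low in every library, at 0.136 and 0.230 FPKM in WT and 0.252 and 0.342 FPKM in CD38 KO. Both CD38 KO libraries of Best1 (ENSMUSG00000037418, chromosome 19, 9985174 to 10001633) were above both WT libraries, though CD38 KO 1 and WT 2 were close. The values stand for 6.99, 12.4, 14.0 and 19.0 fragments with the longest coding transcript. The level was too low for the fit across genes.

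By mean level the order in WT was Gad1, Abat, Maob, Aldh5a1, Slc6a11 and Best1, with Gad1 and Abat overlapping. In CD38 KO it was Abat, Gad1, Maob, Aldh5a1, Slc6a11 and Best1, and no neighbours among these 6 overlapped. Slc6a13, Slc32a1 and Gad2 stayed below 0.1 FPKM in all libraries. The plot of FPKM by library shows the 9 genes on 3 separate scales.

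**Figure D2:**
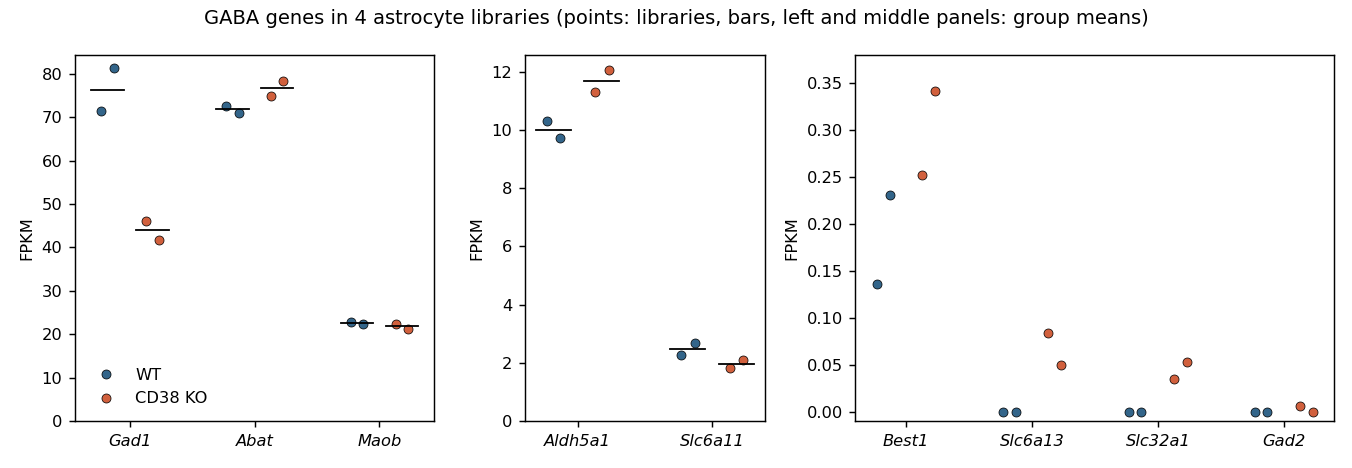
FPKM (linear axes, 3 panels with different ranges) of the 9 GABA genes, 1 point per library, blue for WT and orange for CD38 KO, with bars for group means in the left and middle panels. Gad1 lies at 71.4 and 81.5 FPKM for WT against 46.1 and 41.7 FPKM for CD38 KO, the widest gap between genotypes among the 9 genes in FPKM.

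Among all tested genes, the differences of Abat, Aldh5a1, Maob and Slc6a11 lay within the bulk. Slc6a11 had 11.1% of tested genes below it in log2 difference, Maob 38.2%, Abat 69.2% and Aldh5a1 83.6%. The plot of difference against level sets Gad1 apart from these 4.

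**Figure D3:**
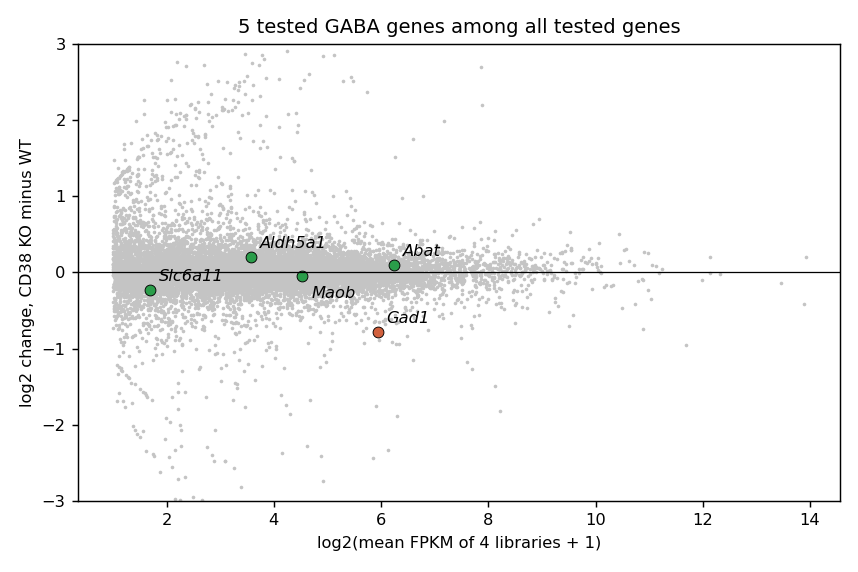
Log2 difference in log2(FPKM + 1), CD38 KO minus WT, against the log2 of mean FPKM plus 1 for 13064 tested genes (grey), with the 5 tested GABA genes as large points. Gad1 (orange, called) is at -0.78 and the other 4 (green, not called) lie between -0.23 and 0.20; 29 genes lie beyond the axis limit of 3 in either direction.

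The genes around these 9 were taken from lists of known roles, 73 genes in all. These lists were chosen with earlier results of these data known, so the shares below describe them and test nothing. Of the 48 that were tested, limma called 4 higher and 7 lower in CD38 KO, 22.9% against 14.4% of all tested genes. Their median log2 difference was -0.04, against 0.0011 over all tested genes, and the genotypes did not overlap in 37 of the 48, beside 59.9% of all tested genes. Without 1 library, 3 or 4 of the 48 were called in place of 11. Adhfe1 and Got1 kept their calls in all 4 such fits, Glul and Slc38a1 in 2 and Azin1 in 1, while the remaining 6 lost theirs in every one. The phagocyte markers, with a median log2 difference of 2.34, and the astrocyte markers, with one of -0.27, moved beside these lists, and their part was not tested.

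For uptake beyond the members, the betaine and GABA transporter Slc6a12, named here after its values were seen, had 0.112 and 0.0554 FPKM in the WT pair and 0.215 and 0.251 FPKM in the CD38 KO pair. It was too low to be tested.

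Both tested genes that handle succinic semialdehyde outside the mitochondrial dehydrogenase step fell. Adhfe1, which oxidizes gamma-hydroxybutyrate (GHB) back to the semialdehyde, had 43.6 and 44.6 FPKM in the WT pair and 29.2 and 27.1 FPKM in the CD38 KO pair. Its mean was 1.57-fold lower (log2 difference -0.63, SE 0.06, limma adjusted p = 0.00201). Akr7a5, a reductase that makes GHB from the semialdehyde, fell from 29.0 and 29.1 to 23.8 and 23.9 FPKM (-0.28, SE 0.05, adjusted p = 0.0189). That call ended in all 4 fits without 1 library (range of adjusted p 0.0162 to 0.116).

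Genes that supply or remove glutamate, the substrate of Gad1, went both ways, with 2 of 12 tested called higher and 2 lower. Over all tested genes the shares were 8.00% and 6.35%. Glul, glutamine synthetase, was the most abundant, with 1653 and 1701 FPKM in the WT pair and 1273 and 1154 FPKM in the CD38 KO pair. It fell 1.38-fold (log2 difference -0.47, SE 0.06, limma adjusted p = 0.0065), a call that ended without WT 1, without WT 2 and with no filter (range 0.00306 to 0.0847). Slc1a3, the glutamate transporter GLAST and also an astrocyte marker here, fell from 449 and 443 to 389 and 378 FPKM (-0.22, SE 0.04, adjusted p = 0.0218, range 0.0102 to 0.126). This call ended in all 4 fits without 1 library. Slc1a2, another glutamate transporter and astrocyte marker, went the other way, from 223 and 201 to 283 and 249 FPKM. It was not called (log2 difference 0.33, SE 0.08, limma adjusted p = 0.0515).

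Got1, cytosolic aspartate aminotransferase, rose from 25.6 and 26.0 to 38.0 and 36.1 FPKM, by 43.5% (log2 difference 0.50, SE 0.05, limma adjusted p = 0.00316). Slc38a1, a glutamine carrier, rose from 39.9 and 42.4 to 54.1 and 54.1 FPKM (0.39, SE 0.05, adjusted p = 0.00728). Its call ended without either CD38 KO library, with adjusted p up to 0.0827 in a range from 0.00481.

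In the polyamine route, which leads from ornithine through putrescine to GABA, 1 of 11 tested genes was called, beside 14.4% of all tested genes. Azin1, a protein that relieves the inhibition of ornithine decarboxylase, fell from 151 and 149 to 114 and 131 FPKM (log2 difference -0.30, SE 0.07, limma adjusted p = 0.0481). It lost its call without either WT library, without CD38 KO 1, with no filter, with no trend and with median-of-ratios scaling (range 0.0309 to 0.184). Odc1, ornithine decarboxylase itself, had 128 and 129 FPKM in the WT pair and 135 and 137 FPKM in the CD38 KO pair and was not called. The acetylating enzyme Sat1, at 230 and 277 against 322 and 278 FPKM, and the antizyme Oaz2, at 88.6 and 85.2 against 79.2 and 79.3 FPKM, were not called either. For Sat1 the nearest libraries of the genotypes differed by less than 1 FPKM.

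The enzymes that carry succinate and its precursors in the citric acid cycle had 2 of 7 tested genes called higher and 0 lower. Over all tested genes, 8.00% were called higher and 6.35% lower. An unadjusted p under 0.05 was reached by 5 of the 7, all of them higher, with no share over all tested genes to set beside it. Sdhb, a subunit of succinate dehydrogenase, rose from 141 and 141 to 174 and 163 FPKM (log2 difference 0.25, SE 0.05, limma adjusted p = 0.0233, range 0.0177 to 0.127). Suclg2, a subunit of succinyl-CoA ligase, rose from 43.7 and 41.8 to 51.4 and 50.2 FPKM (0.24, SE 0.05, adjusted p = 0.0274, range 0.0231 to 0.152). Both calls ended in all 4 fits without 1 library, and the related Suclg1 (0.15) and Sdha (0.13) were not called.

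Of 3 genes that make or recycle pyridoxal phosphate, the cofactor of Gad1 and Abat, limma called 0, with 1 at an unadjusted p under 0.05. That gene was Pdxk, pyridoxal kinase, with 13.1 and 11.7 FPKM in the WT pair and 14.9 and 16.1 FPKM in the CD38 KO pair (log2 difference 0.31, SE 0.08, adjusted p = 0.0556). Pdxp (-0.02), a phosphatase of the cofactor, overlapped between genotypes.

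Receptors for GABA were low apart from 1 subunit. Of 19 subunits of the GABA-A chloride channel, 17 fell short of the filter, none of these above 1.12 FPKM in any library, and 3 of them were listed at 0 throughout. Gabrb1, a tested subunit, had 2.32 and 2.10 FPKM in the WT pair and 1.83 and 1.55 FPKM in the CD38 KO pair. Both CD38 KO libraries were below both WT libraries, but limma called 0 of the 2 tested subunits, with 0 at an unadjusted p under 0.05. Gabbr1, a subunit of the metabotropic GABA-B receptor, had 37.3 and 41.6 FPKM in the WT pair and 29.3 and 34.4 FPKM in the CD38 KO pair (log2 difference -0.30, SE 0.09, adjusted p = 0.0897). Its partner Gabbr2, named after its values were seen, was at 0.104 FPKM or less.

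Chloride cotransporters, which set the direction of current through GABA-A channels, had 0 of 2 tested genes called, also at an unadjusted p under 0.05. Slc12a2 (NKCC1) was at 8.74 and 8.02 against 7.71 and 8.44 FPKM, and Slc12a5 (KCC2) at 2.96 and 2.94 against 3.57 and 3.57 FPKM. Only Slc12a5 of these 2 had genotypes that did not overlap.

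Other anion channel genes, from the bestrophin, LRRC8 and tweety families, had 0 of 7 tested called higher and 2 lower. Over all tested genes the shares were 8.00% and 6.35%. Ttyh1 fell from 113 and 124 to 97.2 and 88.0 FPKM (log2 difference -0.35, SE 0.07, limma adjusted p = 0.0271, range 0.00721 to 0.144). Ttyh3 fell from 23.2 and 25.3 to 19.4 and 19.4 FPKM (-0.31, SE 0.06, adjusted p = 0.0293, range 0.0244 to 0.162). These calls ended in all 4 fits without 1 library. Lrrc8c (-0.23) and Lrrc8d (-0.20), subunits of the volume-regulated channel, were not called. The plot of 45 of these 48 differences by role shows where the called genes lie.

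**Figure D4:**
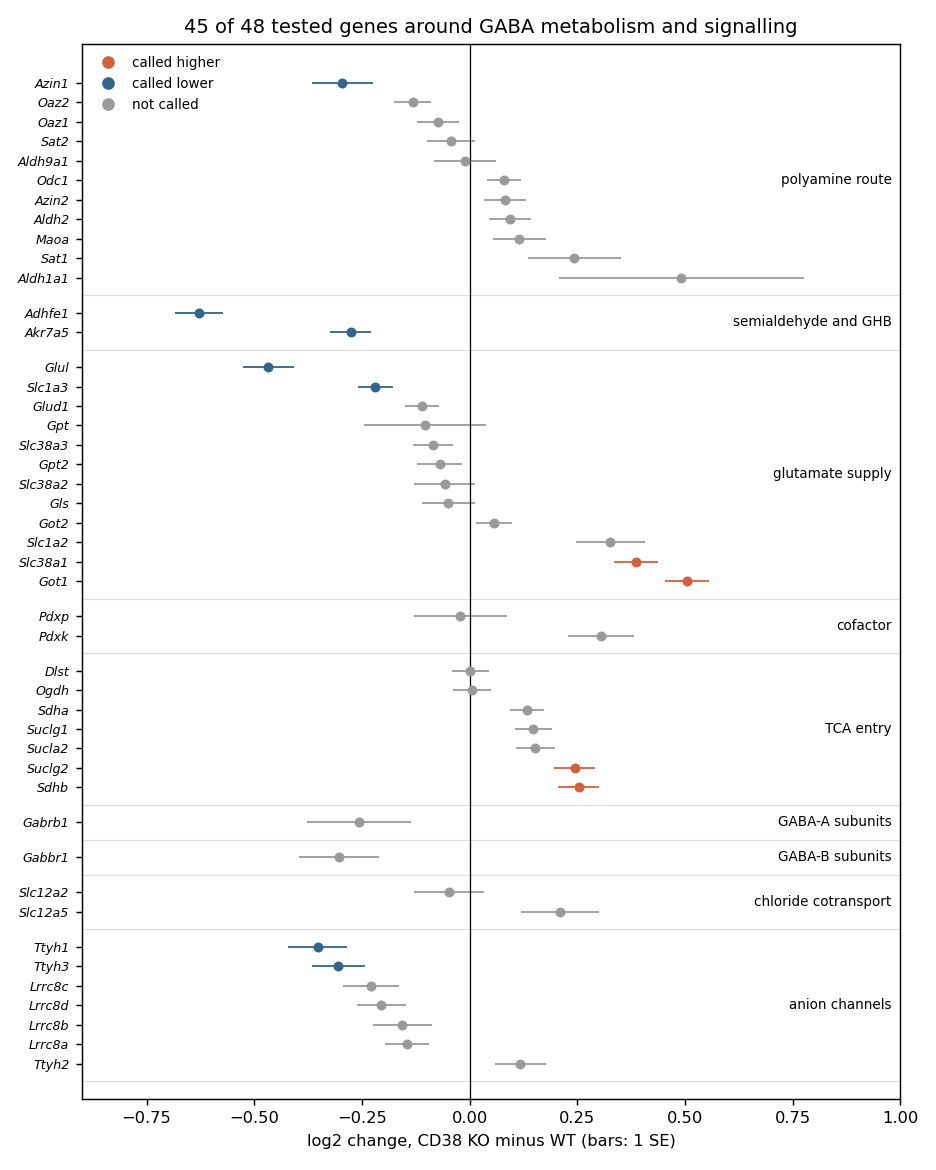
Log2 difference in log2(FPKM + 1), CD38 KO minus WT, with bars of 1 SE, for 45 of the 48 tested genes grouped by role; orange marks genes called higher, blue called lower and grey not called. Adhfe1, at -0.63, is the lowest and Got1, at 0.50, the highest of those plotted.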

How the data were processed

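Per the file headers, the 4 deposited files hold 1 FPKM value per gene and library. Cufflinks 2.2.1, STAR 2.7.0f, bcl2fastq 2.17 and build GRCm38 are listed, per the submitters' processing notes. Which annotation was used, and whether libraries were scaled to each other, is not stated in the labels. Positions came from GENCODE M21. Depth came from steps of 1 fragment in 17444 genes with a single transcript, where 91.7% to 92.5% of values under 10 fragments fell within 0.1 of a whole number.

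Genes whose mean over the 4 libraries reached 1 FPKM were tested on log2(FPKM + 1) with limma 3.58.1 (R 4.3.3), genotype as the only term, trended moderation and Benjamini-Hochberg adjustment over all 13064 genes at 0.05. The code was tested on simulated data. Tables and plots used Python 3.11.15.

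The 9 members and all lists were chosen with earlier results of these data known. The text names the 9, up to 4 genes of smallest p and every called gene per pathway list, and the 3 most abundant markers per list; other markers and genes named were chosen after their values were seen. Alternatives changed the pseudocount, filter, scaling, moderation, replicate block and libraries. Markers of oligodendrocyte lineage, ependymal and endothelial cells are in the closing section. Some genes that the rule would name are not reported here, though they stay in the fit and in the counts.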

Additional observations from a re-analysis of the deposited data

How the results depend on the processing

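Against 1875 genes called in the fit as reported, 742 were called with no filter, 1037 with the replicate number as a block and 547 to 742 without 1 library. For the genes around the 9 members, 11 calls became 4 with no filter, 5 with the block, 5 with no trend in the moderation and 3 to 4 without 1 library. The cause was not tested, except that fits without 1 library hold fewer samples and no filter tests 26654 genes. Libraries of the same number deviated from their group means with a correlation of -0.16 across genes. That value cannot show how the libraries were made, and the labels state no pairing, so the fit as reported leaves out the block. Akr7a5, Slc1a3, Suclg2, Sdhb, Ttyh1, Ttyh3 and Azin1 passed without it but not with it, and all but Akr7a5 also failed with no filter and with no trend. A block with crossed numbers, chosen after seeing the data, called 1961 genes and 13 of the 48. The log2 differences of Gad1, Abat, Aldh5a1, Maob and Slc6a11 could move only with the pseudocount, the scaling or the libraries used, since the other settings leave the fitted difference as it is, and they kept their sign under those. Without 1 library they ran from -0.88 to -0.69 for Gad1, 0.06 to 0.12 for Abat, 0.16 to 0.25 for Aldh5a1, -0.09 to -0.01 for Maob and -0.32 to -0.14 for Slc6a11. With a filter at 5 FPKM, Slc6a11 was not in the fit. Gad2, Slc6a13 and Slc32a1 had at most about 5 fragments in a library, too few at this depth to measure a difference.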

Other observations

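Other cell types were measured with short marker lists. The oligodendrocyte lineage list, led by Olig1, Olig2 and Cspg4, summed to 175 and 168 FPKM in WT and to 137 and 150 FPKM in CD38 KO, with 0 of 6 tested members called higher by limma and 2 lower (0 and 4 at an unadjusted p under 0.05). Pdgfra and Olig2 were the 2, Pdgfra at 3.37 and 4.84 against 1.60 and 1.24 FPKM and Olig2 at 19.9 and 19.2 against 14.0 and 15.9 FPKM. The call of Olig2 ended in all 4 fits without 1 library, and that of Pdgfra did not hold in all of them. Ependymal markers summed to 56.0 and 54.6 FPKM in WT and to 70.5 and 66.8 FPKM in CD38 KO. Among them Foxj1, a transcription factor of cilia, rose from 39.4 and 37.7 to 57.0 and 54.7 FPKM, while Rsph1, a cilium protein, fell from 16.5 and 16.6 to 12.9 and 11.5 FPKM, and Ccdc153 was too low to be tested. The call of Rsph1 ended in all 4 fits without 1 library. Endothelial markers (Pecam1, Cdh5 and Kdr above Cldn5) summed to 0.792 and 0.513 FPKM in WT and to 1.68 and 1.71 FPKM in CD38 KO, none of them high enough to be tested.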
